A study of Rattus norvegicus with 9 samples.

Results

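The 6 genes described here encode insulin-like growth factor 1 (*Igf1*), its receptor (*Igf1r*), the fibroblast growth factors *Fgf1* and *Fgf2* and the fibroblast growth factor receptors *Fgfr1* and *Fgfr2*. They are all target genes of a rat osteogenesis PCR array whose symbol starts with Igf or Fgf, 6 of 84, and they were chosen by name and not by their values. Messenger RNA was measured in tissue of the patellar enthesis of adult male Sprague Dawley rats. In native tissue the contralateral enthesis had not been operated. In the S-MT and S-AT groups a bone defect at the tibial insertion was filled with a biphasic silk fibroin scaffold with a mixed or an abrupt transition, respectively. In the empty defect group (ED) the tendon was sutured back over the same kind of defect, and in the transversal cut group (TC), labelled as a tendon-to-tendon suture, the tendon was cut without damage to the bone. Operated tissue was taken 4 and 12 weeks after surgery (4W and 12W), and native tissue, labelled with 4 weeks, served as 1 group. The labels give 8 rats for each group and time, yet each gene has a single deposited value for a group. Whether this value stands for a single rat, a mean or a pool is not given in the sources used here. Replicates were thus lacking, neither errors nor tests could be given, and each difference below is a description of 1 value against another. Because whole tissue was lysed, fewer cells of a type and less RNA per cell cannot be told apart.

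IGF-1 is a secreted hormone and local growth factor that binds the tyrosine kinase receptor encoded by *Igf1r*, and in tendon and bone it promotes cell growth and collagen synthesis. FGF-1 and FGF-2 are heparin-binding ligands of tyrosine kinase receptors such as FGFR1 and FGFR2. FGF-2 drives proliferation of fibroblasts and bone progenitors, and the FGF receptors take part in bone growth and cartilage development.

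Expression was read as the threshold cycle (Ct), which is the cycle of the PCR where SYBR Green fluorescence first exceeds a set limit, and a gene with less template has a later Ct. A Ct over 35 or an undetermined well counted as not detected. The mean of the *Ldha* and *Rplp1* wells was subtracted to give the normalized Ct, and a fold change is 2 to the power of the negative difference of normalized Ct. Genes at least 2-fold apart were called higher or lower. Where the group divided by was over the cut-off, its Ct was set to 35, which gives a lower bound (at least). Such a bound under 1 does not show a decrease. Where only the other group was over it, the fold is an upper bound. The mean Ct of the reference genes ranged from 25.7 in S-AT 12W to 30.02 in native, so the cut-off corresponds to a normalized Ct of 9.27 in S-AT 12W but of only 4.98 in native, 5.23 in TC 4W and 5.25 in TC 12W. A gene expressed at a steady level could thus be detected in one sample and not in another.

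Features of the whole array bear on these genes. Between 20 (native) and 83 (ED 12W) of the 84 target genes were detected per sample. Fibroblast markers (*Col1a1*, *Col1a2* and *Col3a1*) and the fibrocartilage genes *Col2a1* and *Comp* were detected in all 9 samples. Of the same fibrocartilage list, *Sox9* was detected only in S-MT 12W, S-AT 12W, ED 12W and TC 12W. *Col10a1* of this list was detected only in S-MT 12W, ED 4W, ED 12W and TC 12W. Osteoblast markers were not detected in native, ED 4W and TC 4W, and all 4 were detected in ED 12W. The genomic DNA control well, named here from the usual layout of the maker because the deposited tables leave control wells unnamed, had a Ct of 29.2 in ED 12W, 30.4 in TC 12W and 30.9 in S-MT 12W, and of 32.5 to 36.5 in the other samples. For the positive PCR control wells the mean Ct lay at 21.1 to 21.9 in 7 samples, at 19.1 in ED 12W and at 26.04 in S-AT 12W. *Ldha* came 5.69 cycles after *Rplp1* in ED 4W and 5.38 in TC 4W, against 2.26 to 3.25 in the other samples. Folds of ED 4W or TC 4W against those samples thus depend on which reference gene is used. With *Ldha* alone all log2 folds of ED 4W over native were 1.33 higher, and with *Rplp1* alone 1.33 lower. In S-AT 12W only 1 member was detected, beside 52.4% of all target genes, and in ED 12W all 6, beside 98.8%, so counts that rest on these samples are also given without them.

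Upstream sequences are shown for *Igf1* and *Igf1r* because this ligand and its receptor are compared within each sample further on. They are the 250 bases before the annotated start in GRCr8, from RefSeq, 5′ to 3′, with each CG in capitals. A CG reads the same on both strands. *Igf1* is at chr7:24172282-24172531 and *Igf1r* at chr1:130959747-130959996, both on the plus strand.
Igf1: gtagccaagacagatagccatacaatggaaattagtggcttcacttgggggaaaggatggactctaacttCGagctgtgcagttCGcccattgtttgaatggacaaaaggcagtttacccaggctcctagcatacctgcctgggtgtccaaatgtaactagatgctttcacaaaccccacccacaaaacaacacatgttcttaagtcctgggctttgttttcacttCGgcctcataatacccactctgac
Igf1r: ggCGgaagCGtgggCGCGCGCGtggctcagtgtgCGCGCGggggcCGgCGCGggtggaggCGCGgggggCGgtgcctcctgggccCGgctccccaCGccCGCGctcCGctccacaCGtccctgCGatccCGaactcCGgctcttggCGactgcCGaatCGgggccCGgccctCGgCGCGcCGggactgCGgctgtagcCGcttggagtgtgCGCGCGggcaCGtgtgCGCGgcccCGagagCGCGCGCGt
The *Igf1* sequence held 3 CG and was 46.8% G or C, whereas that of *Igf1r* held 45 CG and was 79.6% G or C. Of 33469 rat promoters of this length, 71.4% held at least 3 CG and 0.415% at least 45. Among the other members *Fgfr2* held 37 CG, *Fgf2* 9 and *Fgf1* 4, beside a median of 5 over all promoters, while *Fgfr1* was not matched in the promoter table. These letters are a description and were not related to the PCR values.

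*Igf1* was detected in every sample. Its Ct was 31.5 in native, 28.1 in S-MT 4W, 28.5 in S-MT 12W, 28.6 in S-AT 4W, 33.2 in S-AT 12W, 27.9 in ED 4W, 28.6 in ED 12W, 30.5 in TC 4W and 32.1 in TC 12W. It was the only member among the 16 target genes (19%) detected in all 9 samples. The other members came later or were not detected. *Igf1r* was detected in 6 samples, *Fgfr1* in 5, *Fgf2* in 3, and *Fgf1* and *Fgfr2* in ED 12W only, as were 15.5% of all target genes in a single sample. Over all members and samples 25 of 54 wells were detected, against 57.8% of the wells of all target genes.

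**Figure D1:**
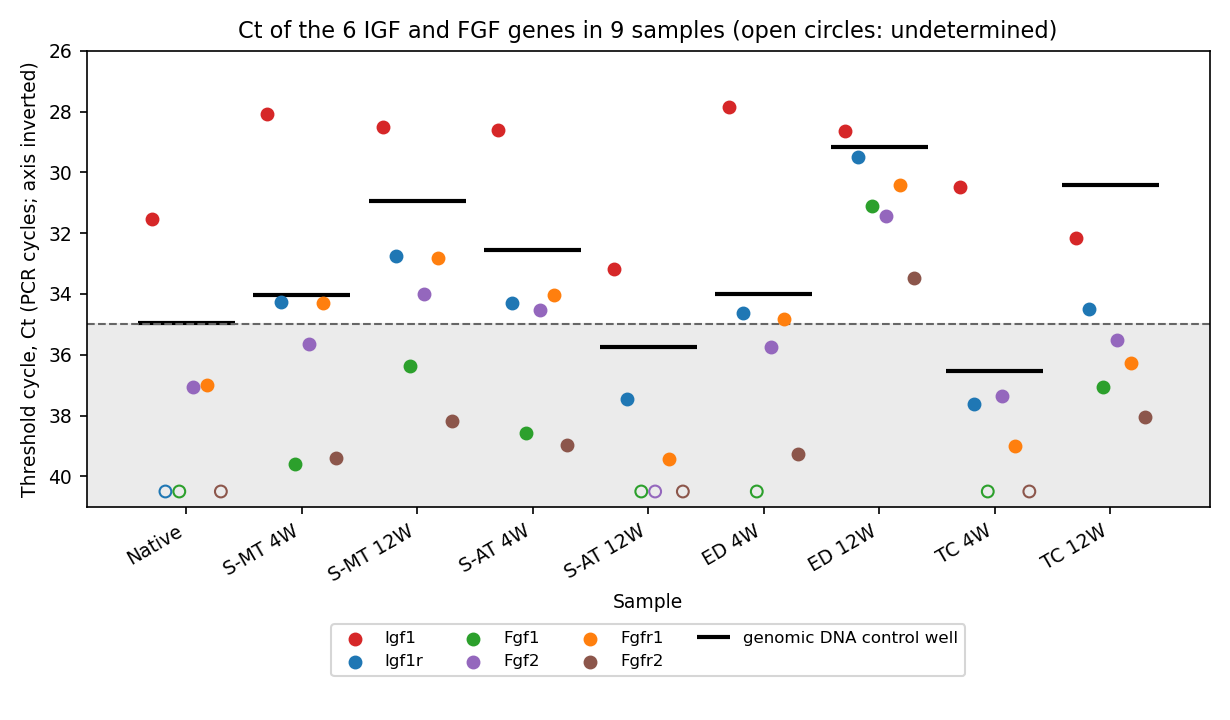
Ct of each member (coloured points; y axis in PCR cycles, inverted so that more template is higher) in the 9 samples on the x axis, with the genomic DNA control well of each sample as a black bar, the cut-off of 35 as a dashed line and undetermined wells as open circles in the grey area. *Igf1* lies above the bar in 8 of 9 samples, and no other member lies above it in any sample.

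Relative to the genomic DNA control well, *Igf1* was ahead in 8 of 9 samples and by at least 1 cycle in 7. In ED 12W its lead was short (28.6 against 29.2), and it came 1.73 cycles after it in TC 12W. The other 5 members came later than the control well in every sample in which they were detected. *Igf1r* followed it by 0.255 cycles in S-MT 4W, 0.341 in ED 12W and 4.08 in TC 12W, and *Fgfr1* by 0.263 cycles in S-MT 4W and 1.24 in ED 12W. Of all wells of target genes with a Ct of 35 or earlier, 55.4% were ahead of the control well, compared with 8 of 25 for the members. The part of genomic DNA in the signal of *Igf1r*, *Fgf1*, *Fgf2*, *Fgfr1* and *Fgfr2* was not tested.

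The ligand *Igf1* stayed within 2-fold of native tissue in 6 of 8 operated groups by *Ldha* and *Rplp1*, but in only 2 of 8 (ED 4W and TC 4W) by the median of target genes, by which it was lower in the other 6. That median is of 15 target genes detected in all samples, many of them matrix genes. *Col1a1*, *Col1a2* and *Col3a1* among them were all called higher than native in S-MT 4W, S-MT 12W, S-AT 4W and ED 4W, and all lower in S-AT 12W. The normalized Ct of *Igf1*, for which a lower value means a higher level, was 1.501 in native and -0.32 in ED 4W, where the level was highest. It was 0.72 in TC 4W, 1.28 in S-MT 4W and 1.70 in S-AT 4W. At 12 weeks it was 2.12 in S-MT, 2.398 in TC, 2.41 in ED and 7.45 in S-AT, the lowest level. By these reference genes S-MT, TC and ED lay close together at 12 weeks, whereas with all 5 housekeeping genes their values were 2.25, 0.38 and 0.84. S-AT 12W stood apart from all other samples, though less so by the median of target genes (2.50, against 0.77 in S-MT 12W). The order of the others cannot be told from their spread, since each group has 1 value.

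In ED 4W *Igf1* was 3.54-fold higher than in native, where 33.3% of the genes tested were called higher. *Col1a1*, *Col1a2* and *Col3a1*, fibril collagen genes set beside *Igf1*, were called higher too (3 of 3), and their median log2 fold was 2.13, against 1.20 for all genes measured in both groups. With *Rplp1* alone as reference the log2 fold of *Igf1* in ED 4W was 0.50, under 2-fold. Myeloid cells can produce IGF-1. Of the 4 genes listed here for myeloid cells and osteoclasts, *Ctsk* was detected in ED 4W and *Itgam*, *Tnf* and *Csf1* were not. Thus 1 of 4 was detected there as in native. In S-MT 4W 3 of 4 were detected, and *Igf1* was 1.16-fold the native level. These counts depend on the cut-off in each sample. *Csf1* counted as detected in S-MT 4W at a normalized Ct of 5.91, but not in native at 5.30. The counts give no measure of cell content, and the part of myeloid cells in the level of *Igf1* was not tested.

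In S-AT 12W *Igf1* was 61.8-fold lower than in native, the lowest of the 19 genes measured in both groups, and 80% of the genes tested were called lower. Next came *Col4a1*, a basement membrane collagen, with a log2 fold of -5.67 against -5.95 for *Igf1*. The median log2 fold of the 19 genes was -2.39. By the median of target genes the log2 fold of *Igf1* was -4.07, still past 2-fold. The positive PCR control wells of S-AT 12W came late, with a mean Ct of 26.04 against 21.9 in native. Their bearing on this fold was not tested. In the other comparisons with native *Igf1* was between 1.88-fold lower (ED 12W) and 1.72-fold higher (TC 4W), within the limits. With *Ldha* alone it was past 2-fold higher in TC 4W (log2 fold of 1.95) and past 2-fold lower in ED 12W (-1.30). With all 5 housekeeping genes it was past 2-fold lower in S-MT 12W (-1.28). The share of all genes called higher was 29.4% in S-MT 4W and in TC 12W, 30.3% in S-MT 12W and 25% in S-AT 4W and in TC 4W, and in S-AT 12W it was 4.55%. The share called lower was 0% in both S-MT groups, 10% in S-AT 4W and in ED 4W, 15% in TC 12W, 20% in ED 12W and 30% in TC 4W.

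*Igf1r* could not be measured in native tissue, where its well was undetermined, and neither could the other 4 members, of which *Fgf2* had a Ct of 37.0 and *Fgfr1* of 37.0. Their comparisons with native are therefore all lower bounds. The receptor gene *Igf1r* in ED 12W was the only one past 2-fold, at least 3.24-fold higher, where 41% of the genes tested were called higher, and at a cut-off of 33 this call was lost (bound of -0.30 on the log2 scale). *Fgfr1* was at least 1.74-fold, *Fgf1* at least 1.05-fold and *Fgf2* at least 0.852-fold the native level in ED 12W. In all, 15 bounds of *Igf1r* and the FGF genes gave no call, and those under 1 allow both a higher and a lower level. Over the 8 groups, members were called higher 2 times, against 28.8% of all genes tested, and lower 1 time, against 20.6%. Without ED 12W, 1 call of a higher level was left, and without S-AT 12W the number of calls of a lower level was 0.

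**Figure D2:**
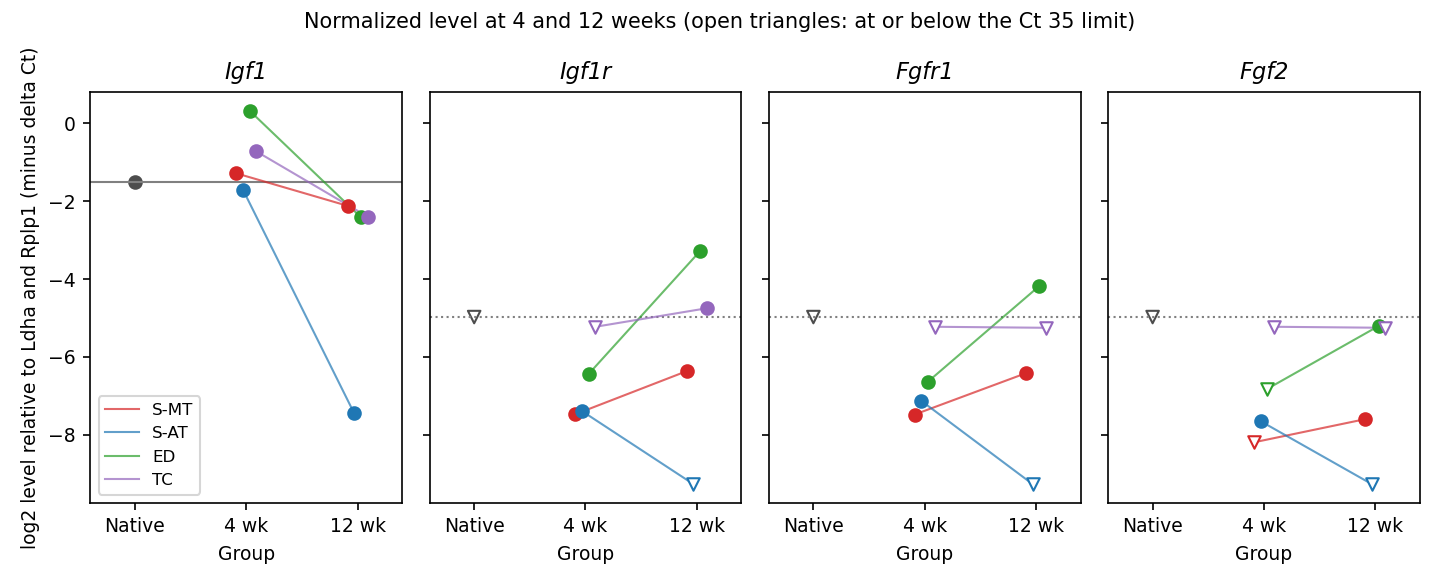
Level of *Igf1*, *Igf1r*, *Fgfr1* and *Fgf2* relative to *Ldha* and *Rplp1* (y axis, log2, minus the normalized Ct) in native and at 4 and 12 weeks (x axis), 1 value per group, with a line for each treatment. Filled circles are detected genes and open triangles mark the cut-off of 35 in that sample, at or below which the level lies. The solid line is the native level of *Igf1* and the dotted lines are the cut-off in native, and points are shifted sideways only to separate treatments. By these reference genes *Igf1* is lower at 12 than at 4 weeks in all 4 treatments (in TC not with all 5 housekeeping genes), most in S-AT, where its normalized Ct went from 1.70 to 7.45.

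At 12 weeks the value of *Igf1* was below that at 4 weeks in each of the 4 treatments, past 2-fold in 3 of them. It was 53.7-fold lower at 12 weeks in S-AT, 6.67-fold in ED, 3.20-fold in TC and, within the 2-fold limits, 1.78-fold in S-MT. Background shares of genes called lower were 76.8% in S-AT, 33.3% in ED, 16.7% in TC and 0% in S-MT. The order of a fold among the genes measured at both times needs no reference gene. *Igf1* had the lowest change in S-MT (51 genes) and in S-AT (43 genes), the 4th lowest of 42 in ED and the 2nd lowest of 23 in TC. Its log2 change was below the median of these genes by 1.75 in S-MT, 3.51 in S-AT, 3.49 in ED and 1.73 in TC. *Igf1* stands in row D of the plate, and in S-AT 12W genes of rows C and D came later as well. There the Ct of *Igf1* was 4.59 cycles later than at 4 weeks, compared with a median of 3.10 cycles (1.82 to 3.13) for the 3 other genes of row D measured at both times and 3.25 cycles (1.29 to 4.20) for 6 genes of row C. Among the genes of both rows *Igf1* was the lowest in S-MT (13 genes) and in S-AT (10 genes), 3rd lowest of 11 in ED and 2nd lowest of 8 in TC. The part of plate position was not tested, nor was that of the late positive PCR control wells of S-AT 12W (mean Ct of 26.04).

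The size of these differences depended on the reference in all 4 treatments. By the median of target genes the log2 change in S-AT was -2.28 in place of -5.75, and with all 5 housekeeping genes that in S-MT was -1.28, past 2-fold. With *Rplp1* alone the log2 change was -1.02 in ED and -0.44 in TC, and with all 5 housekeeping genes it was 0.07 in TC, so that the direction turned. No reference tried turned it in S-MT, S-AT or ED.

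**Figure D3:**
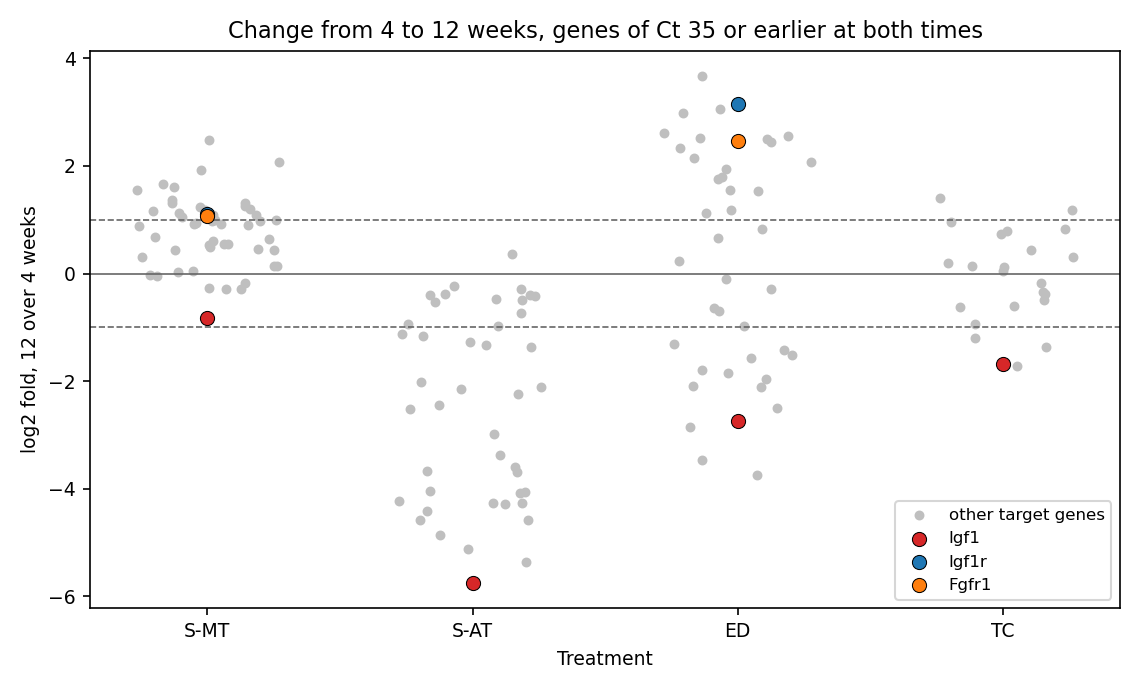
Log2 fold of 12 over 4 weeks (y axis) in each treatment (x axis) for every target gene with a Ct of 35 or earlier at both times, with 1 point per gene, members in colour, other genes in grey and dashed lines at 2-fold. *Igf1* is the lowest point in S-MT (-0.83) and S-AT (-5.75), while *Igf1r* and *Fgfr1* lie above 2-fold in S-MT and ED.

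The receptor genes *Igf1r* and *Fgfr1* changed the other way in S-MT and ED. *Igf1r* had a Ct of 34.3 in S-MT 4W, 32.8 in S-MT 12W, 34.6 in ED 4W and 29.5 in ED 12W. It was 2.15-fold higher at 12 than at 4 weeks in S-MT and 8.90-fold higher in ED. *Fgfr1*, with a Ct of 34.3, 32.8, 34.8 and 30.4 in these samples, was 2.09-fold and 5.49-fold higher. In S-MT both calls were lost with all 5 housekeeping genes (log2 of 0.66 for *Igf1r* and 0.62 for *Fgfr1*) and at a cut-off of 33, and that of *Fgfr1* also with an amplification of 1.9 (0.98). In ED the log2 fold of *Igf1r* was 1.44 with *Ldha* alone and 4.87 with *Rplp1* alone, while *Fgfr1* fell within 2-fold with *Ldha* alone (0.74) and lost its call at a cut-off of 33 (bound of 0.64). Of the genes tested, 36.4% were called higher in S-MT and 67.5% in ED. In S-MT the log2 changes of *Igf1r* (1.11) and *Fgfr1* (1.06) were close to the median of all 51 genes (0.92). In ED *Igf1r* ranked 2nd highest of 42 genes and *Fgfr1* 9th. The genomic DNA control well moved from 34.0 to 30.9 in S-MT and from 34.0 to 29.2 in ED over the same time. In ED the ligands *Fgf1* and *Fgf2* were at least 3.79-fold and 3.06-fold higher at 12 weeks, and *Fgfr2*, with a Ct of 33.5 at 12 and 39.3 at 4 weeks, was at least 0.745-fold, which gives no call. The calls of *Fgf1* and *Fgf2* were lost with *Ldha* alone (bounds of 0.20 and -0.10 on the log2 scale) and at a cut-off of 33 (-0.08 and -0.39).

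In S-AT *Igf1r*, *Fgfr1* and *Fgf2* were lower at 12 weeks. *Igf1r* went from a Ct of 34.3 to 37.5, *Fgfr1* from 34.0 to 39.4 and *Fgf2* from 34.5 to undetermined. As bounds, *Fgfr1* was at least 4.40-fold lower, *Igf1r* 3.67-fold and *Fgf2* 3.07-fold, where 76.8% of the genes tested were called lower. By the median of target genes all 3 calls were lost, with upper bounds of 1.32 for *Fgfr1*, 1.59 for *Igf1r* and 1.84 for *Fgf2* on the log2 scale. In TC *Igf1r* was over the cut-off at 4 weeks (Ct of 37.6) and at 34.5 at 12 weeks, at least 1.39-fold its former level, which was past 2-fold with *Rplp1* alone (log2 of at least 1.72), all 5 housekeeping genes (2.23) and the median of target genes (1.06), and *Fgfr1* was over the cut-off at both times. Over the 4 treatments, members were called higher 6 times, against 37.7% of all genes tested, and lower 6 times, against 35.3%. Without ED 12W, 2 higher calls were left, and without S-AT 12W, 2 lower calls.

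At 4 weeks S-MT and S-AT did not differ past 2-fold in any member measured in both. *Igf1* was 1.34-fold higher in S-MT, *Igf1r* was 0.948-fold and *Fgfr1* 0.785-fold the S-AT level. *Fgf2* was over the cut-off in S-MT 4W (Ct of 35.7) and within it in S-AT 4W (34.5), with an upper bound of 0.686-fold. The shares of all genes called were 1.96% higher and 5.36% lower, and over both times they were 52.1% and 3%.

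At 12 weeks all 4 members with a fold were higher in S-MT than in S-AT, a share near the 90.9% of all genes called higher. *Igf1* was measured in both, and its log2 fold of 5.33 was the 6th highest of 44, whose median was 3.30. *Igf1r* was at least 7.48-fold, *Fgfr1* at least 7.21-fold and *Fgf2* at least 3.18-fold higher. When the median of the target genes served as reference, the log2 fold of all genes dropped by 3.59, which left *Igf1* as the only member called higher. At a cut-off of 33 the calls of *Igf1r* and *Fgfr1* were lost too (bounds of 0.90 and 0.85). *Fgf2* was over that cut-off in both groups and had no fold. With the authors' normalized values only *Igf1* had a fold.

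Compared with ED, S-MT held less *Igf1* at 4 weeks, and less of the other 5 members at 12 weeks. *Igf1* was 3.05-fold and *Igf1r* 2.05-fold lower in S-MT 4W, where 21.4% of the genes tested were called lower, and *Fgfr1* was 1.80-fold lower within the limits. With *Rplp1* alone the log2 fold at 4 weeks was -0.34 for *Igf1* and 0.23 for *Igf1r*, so that the latter turned, and *Igf1r* was also within 2-fold with an amplification of 1.9 (-0.96). *Fgfr1* was past 2-fold with *Ldha* alone (-2.11) and the median of target genes (-1.65). At 12 weeks *Igf1* was 1.23-fold higher in S-MT, while *Igf1r* was 8.48-fold, *Fgf2* 5.24-fold and *Fgfr1* 4.72-fold lower, and *Fgf1* and *Fgfr2* at least 13.1-fold and 2.57-fold lower. Of the genes tested 59% were called lower, and *Igf1r* had the 13th lowest log2 fold of 66 genes. Over both times members were called lower 7 times, against 46.4% of all genes tested, and none was called higher, against 26.5%. The direction of *Igf1* at 12 weeks turned with *Rplp1* alone (log2 fold of -0.14), with all 5 housekeeping genes (-1.41) and with the median of target genes (-1.09). The call of *Fgfr2* was lost with *Ldha* alone (upper bound of -0.93). Without ED 12W, 2 calls were left.

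Between both repairs without scaffold, *Igf1* was 2.06-fold higher in ED than in TC at 4 weeks (28.6% of genes called higher) and 0.990-fold at 12 weeks. The log2 fold at 4 weeks was under 2-fold with *Rplp1* alone (0.89), the median of target genes (0.995) and an amplification of 1.9 (0.97). *Igf1r* was 2.77-fold and *Fgfr1* at least 2.11-fold higher in ED 12W than in TC 12W, where 31.3% of the genes tested were called higher. The call of *Igf1r* was lost at a cut-off of 33 (bound of -0.03), and that of *Fgfr1* there (-0.93), with *Ldha* alone (0.75), with all 5 housekeeping genes (0.62) and with an amplification of 1.9 (0.99). No member was called lower, against 4.17% of the genes at 4 weeks and 13.7% at 12 weeks. Over both times the shares were 30.4% higher and 10.7% lower, and without either 12-week sample 1 call of the 3 was left. The genomic DNA control well came earlier in ED 12W than in TC 12W by Ct, but later relative to the reference genes, 2.94 against 0.673 cycles after them.

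The Ct of *Igf1* minus that of *Igf1r* compares the ligand with its receptor in 1 sample without any reference gene. Both wells are neighbours on the plate (D09 and D10). Because the 2 assays can differ in efficiency, the difference is no ratio of transcript numbers, and only its change between samples is read. *Igf1* was ahead of *Igf1r* in every sample. In native it was at least 3.48 cycles ahead, with *Igf1r* undetermined. At 4 weeks it was ahead by 5.69 cycles in S-AT, 6.19 in S-MT and 6.76 in ED. In TC 4W the difference was 7.12 cycles by the deposited Ct, but *Igf1r* was over the cut-off and at least 4.50 cycles is what the cut-off allows. At 12 weeks the lead was 4.25 cycles in S-MT, 2.35 in TC and 0.867 in ED. In S-AT 12W it was 4.27 cycles by the deposited Ct and at least 1.82 with the cut-off.

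The lead of *Igf1* was thus shorter at 12 than at 4 weeks in ED, S-MT and, by its bound of at least 4.50 against 2.35 cycles, TC. It shrank by 5.89 cycles in ED, a 59.3-fold change of the ratio, and by 1.94 cycles (3.84-fold) in S-MT. In S-AT the bound at 12 weeks allows a longer or a shorter lead. At 4 weeks the ratios of S-MT and S-AT were 1.41-fold apart and those of S-MT and ED 1.49-fold, whereas at 12 weeks S-MT and ED were 10.4-fold apart. Over the 6 samples in which both genes were detected the difference ranged over 5.89 cycles with an SD of 2.33. Without ED 12W the range was 4.41 cycles. The genomic DNA control well was earliest relative to the reference genes in TC 12W (0.673 cycles after them), ED 12W (2.94) and S-MT 12W (4.56), which were also the 3 samples with the shortest measured leads. In S-AT 12W, where it came 10.005 cycles after the reference genes, the deposited lead was nearly that of S-MT 12W. The part of genomic DNA in the lead was not tested.

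**Figure D4:**
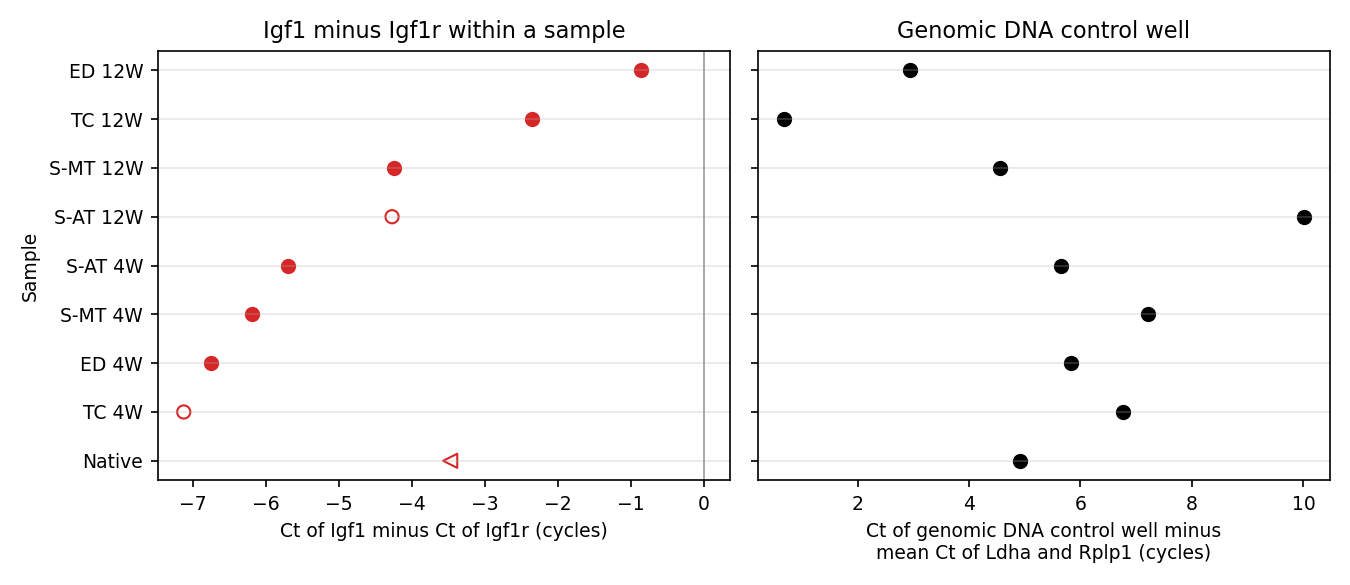
Left, Ct of *Igf1* minus Ct of *Igf1r* (x axis, cycles) in each sample (y axis), with filled points where both were detected, open circles where *Igf1r* was later than 35 and an open triangle for native, where only an upper limit of the difference can be given. Right, Ct of the genomic DNA control well minus the mean Ct of *Ldha* and *Rplp1* (x axis, cycles), 1 value per sample. The difference is closest to 0 in ED 12W (-0.867) and furthest in TC 4W (-7.12).

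*Fgfr1* and *Igf1r*, by contrast, kept close to each other. In the 5 samples in which both were detected *Fgfr1* minus *Igf1r* was 0.00811 cycles in S-MT 4W, 0.0524 in S-MT 12W, -0.265 in S-AT 4W, 0.200 in ED 4W and 0.897 in ED 12W. Its SD was 0.436 cycles. *Fgf2* followed *Fgfr1* by 0.521 to 1.18 cycles in the 3 samples in which both were detected. *Fgfr2* followed *Fgfr1* by 3.07 cycles in ED 12W and by 4.44 to 5.39 cycles in S-MT 4W, S-MT 12W, S-AT 4W and ED 4W, with *Fgfr2* over the cut-off there. *Fgf1* had a Ct of 36.4 or later, or was undetermined, in every sample but ED 12W. There it came 0.308 cycles before *Fgf2*, which in S-MT 12W and S-AT 4W had been the earlier one by at least 1.01 and 0.459 cycles.

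Genes with the steadiest Ct difference to a member were sought among the other target genes. For *Igf1*, over all 9 samples and 15 candidate genes, they were *Col4a1* (SD of 0.947 cycles), *Comp* (1.21), a cartilage matrix protein, and *Col6a1* (1.29), a collagen of the pericellular matrix. Pearson's r of normalized Ct with *Igf1* was 0.900, 0.833 and 0.806. All 3 genes stand in plate row C, next to row D. For *Igf1r*, over 6 samples and 32 candidates, they were the BMP receptor *Bmpr1a* (SD of 0.299 cycles), the platelet-derived growth factor *Pdgfa* (0.332) and the transcription factor *Twist1* (0.506), with r of 0.983, 0.982 and 0.989. *Igf1* itself had an SD of 2.33 cycles and an r of -0.492 with *Igf1r* over these 6 samples. The points of each r share their reference genes, and they hold ED 12W and TC 12W with their early genomic DNA control wells. Those of *Igf1* also hold S-AT 12W. There the normalized Ct of *Igf1* was 7.45 and that of *Comp* 5.75, each later than in any other sample. An r without S-AT 12W was not computed.

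Other growth factor genes that act through tyrosine kinase receptors were *Egf*, *Pdgfa*, *Vegfa*, *Vegfb*, the VEGF receptor *Flt1* and the macrophage growth factor *Csf1*. *Csf1* is also in the list used here for myeloid cells and osteoclasts, as a factor that acts on such cells, and *Flt1* is in that for endothelium. Between 4 and 12 weeks 6 of 6 were higher in ED (median log2 of 2.52 for the 3 measured at both times, against 0.75 for all genes), as were *Igf1r*, *Fgfr1*, *Fgf1* and *Fgf2*. In S-AT 3 of the 5 with a fold were lower, in S-MT 2 of 5 were higher and in TC 3 of 5 were higher. *Igf1* was called lower in ED and TC, though in TC not with *Rplp1* alone or all 5 housekeeping genes. A gene over the cut-off at 4 weeks cannot be called lower at 12 weeks. Of the list only 3 genes in ED and 1 in TC (*Vegfa*) were detected at both times, and none was called lower. The contrast with *Igf1* in TC thus rests on 1 gene. *Vegfa*, which alone of the list was detected in native, had a Ct of 33.2 there and lay within 2-fold of native in 7 of 8 operated groups. The fibril collagen genes *Col1a1*, *Col1a2* and *Col3a1* were called lower at 12 weeks together with *Igf1* in S-AT (3 of 3), ED (3 of 3) and TC (2 of 3), whereas in S-MT 2 of 3 were called higher.

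The deposited Ct table and the deposited normalized table differed for 4 of the 54 wells of these genes. *Fgf2* had a Ct of 34.0 in S-MT 12W and 34.5 in S-AT 4W, but its normalized value is listed as undetermined in both. *Fgfr1* had a Ct of 39.01 in TC 4W and 36.3 in TC 12W, beyond the cut-off, but carries normalized values of 0.00166 and 0.0109, which are those of the Ct without a cut-off. Among all 756 wells of target genes, 4 differed in the first way and 8 in the second. Of the native wells over the cut-off, 62 carry the value of a Ct of 35, 5 of them among the members. Another 2, none of them members, carry a different value.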

How the data were processed

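The authors amplified cDNA of total RNA on a Qiagen rat osteogenesis array with 96 wells and SYBR Green, and used the GeneGlobe portal. The deposited tables hold the Ct of each well and, on a linear scale, the ratio of each target gene to the mean of *Ldha* and *Rplp1*. Another deposited table holds the authors' own fold changes over native and 1 column without a name, none of which were used. Per the labels each of the 9 columns is 1 group. Folds were recomputed from the Ct in numpy 2.4.6 and pandas 2.3.3 (Python 3.11.15) for 18 pairs of groups, with a cut-off of 35 and 2-fold for a call, and the calculation was tested on simulated data. All 6 accessions matched the RefSeq table. Background shares count the genes that could pass in that direction. The members were chosen by name and not by their values, though earlier results of these data were known when members and lists were chosen. All members are named, with the 3 genes of steadiest Ct difference to each member detected in at least 6 samples. The number of samples, 1 per group, limits precision, and none can be given for a single fold. Alternatives were other reference genes, a cut-off of 33 or none, leaving out all bounds, 1.9 in place of 2 as the amplification factor and normalized values as deposited by the authors. Restricting members to those ahead of the genomic DNA control well and leaving out S-AT 12W, ED 12W or TC 12W were added after the data were seen. Figures were drawn with matplotlib 3.10.9.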

Additional observations from a re-analysis of the deposited data

Results flagged for a closer look

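*Igf1* was past 2-fold higher than native in ED 4W (log2 fold of 1.82) and past 2-fold lower in S-AT 12W (-5.95). These groups differ in time as well as in treatment. The log2 fold was -0.91 in ED 12W and -0.20 in S-AT 4W, both within 2-fold. The call in ED 4W was lost with *Rplp1* alone (0.50) and with the median of target genes (0.895). From 4 to 12 weeks *Igf1r* was higher in S-MT (log2 fold of 1.11) and ED (3.15) and lower in S-AT (-1.87 as an upper bound). *Fgfr1* was higher in S-MT (1.06) and ED (2.46) and lower in S-AT (-2.14 as an upper bound), and *Fgf2* was higher in ED (1.61 as a lower bound) and lower in S-AT (-1.62 as an upper bound). With 1 value per group these differences between groups were not tested.

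The genomic DNA control well, which enters no comparison, came 4.92 cycles after the reference genes in native, but 2.94 cycles after them in ED 12W and 0.673 in TC 12W, and was thus at least 1 cycle earlier there than in native.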

How the results depend on the processing

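Of 470 values of single members with a fold under the alternatives, 402 kept their call or the lack of one. Another 34 were no longer past 2-fold, 32 passed it newly and 2 called values turned. Values left without a fold by an alternative are not among the 470, so calls lost in that way are not in the 34. Examples are the lower calls of *Igf1r*, *Fgf2* and *Fgfr1* in S-AT 12W over S-AT 4W. They had no fold with the lower cut-off or with the authors' normalized values. Changes of sign within 2-fold were not counted as turned. The values that turned were *Igf1r* in S-MT 4W over ED 4W (0.23 on the log2 scale with *Rplp1* alone) and *Igf1* in TC 12W over TC 4W (0.073 with all 5 housekeeping genes). The counts of member folds past 2-fold were 2 higher and 1 lower over native, 6 and 6 for 12 over 4 weeks, 4 and 0 for S-MT over S-AT, 0 and 7 for S-MT over ED, and 3 and 0 for ED over TC. No paired analysis was possible because each group has 1 value, and leaving out single rats could not be run for the same reason.

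With *Ldha* alone 2 folds over native were lower and 3 over time were higher. With all 5 housekeeping genes 5 were higher and 2 lower than native. With the median of 15 target genes detected everywhere 1 was higher and 6 were lower than native, 3 were lower over time and 1 was higher in S-MT than in S-AT. A cut-off of 33 left 1 higher than native, 1 higher and 3 lower over time, 1 higher in S-MT than in S-AT and 1 in ED over TC, since fewer genes are within it. Without a cut-off 4 were higher and 4 lower than native, 11 were higher over time, 2 were lower in S-MT than in S-AT and 7 were higher in ED than in TC. Only genes detected in both groups gave 1 higher than native, 3 lower over time and 1 higher in S-MT than in S-AT. An amplification of 1.9 left 1 higher in ED than in TC. The authors' normalized values gave 3 lower over time, 1 higher in S-MT than in S-AT and 4 lower in S-MT than in ED.

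With only members ahead of the genomic DNA control well, in effect *Igf1*, 1 was higher than native, 0 were higher and 2 lower over time, 1 was higher in S-MT than in S-AT, 1 lower in S-MT than in ED and 1 higher in ED than in TC. Leaving out S-AT 12W gave 0 lower than native, 2 lower over time and 0 higher in S-MT than in S-AT. Leaving out ED 12W gave 1 higher than native, 2 higher over time, 2 lower in S-MT than in ED and 1 higher in ED than in TC, and leaving out TC 12W gave 1 higher in ED than in TC. The range of the Ct of *Igf1* minus *Igf1r* was 5.89 cycles, and 3.38 cycles at a cut-off of 33, which leaves 2 samples. Where values moved and no construction of the alternative accounts for it, the cause was not tested.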
